A study of Olea europaea with 24 samples.

Results

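Hexokinases were followed in olive branches (Olea europaea) through the 9 rows of the deposited count table whose identifiers begin with hexokinase, of 50663 rows in all. These rows are numbered hexokinase1 to hexokinase9 by the authors, and they stand among 97 rows with a short name for a gene of starch or sugar metabolism. The numbers are row names and say nothing about which olive gene matches which hexokinase of another plant. Hexokinases phosphorylate glucose and fructose, so that the sugars released from sucrose and starch can enter glycolysis, respiration or new synthesis. In Arabidopsis and rice, members of the family sit in the cytosol, on the mitochondrion, in the plastid or in the nucleus, and HXK1 of Arabidopsis also acts as a glucose sensor. In woody plants they stand between the sugars unloaded from the phloem or mobilised from starch reserves and the carbon that the tissue uses.

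The study, by its title, asked how olive trees use their carbon reserves under heat, drought and recovery. Poly-A RNA of branches was sequenced from 6 trees, each sampled on 7 May and 23 May, again on 6 June and last on 29 July, in 24 libraries that form 8 groups of 3 trees. The dried trees (numbers 4, 8 and 12) had 1 litre of water per week for 2 weeks and then none for 2 weeks. Base watering, given for all 6 trees, was 1.2 litres per day. For the watered trees (numbers 3, 9 and 11) no other watering is given. The labels give no cultivar, no tree age and no tie between the dry weeks and the sampling days. Changes between days within an arm therefore hold season and watering together.

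The libraries held between 6675360 and 14122826 estimated counts. A group of 29 rows, each above 1% of some library and none of them with a short name, took 14% to 91% of a library, so that 988324 to 8938831 counts remained for all other rows. The dried 6 June library of tree 4 and the dried 23 May library of tree 8 were the shallow ones among dried trees, with 72 counts over all hexokinase rows in the library of tree 4. Watered tree 9 stood apart from its group on 7 May and 23 May, and watered tree 3 on 6 June. Levels below are log2 CPM, the usual scaling of counts to a common library size (TMM), on which a count of 0 lies at -2.54, and they are not divided by gene length, so they are compared between libraries and never between rows. In branch tissue, fewer cells of a type and less RNA per cell cannot be told apart, and the labelled tissue could not be checked against markers, since the other rows carry identifiers without names.

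The hexokinase rows differed in how their reads could be assigned. The authors' notes name RSEM, which divides a read that matches several rows among them and so gives fractional counts. Of the 9 rows, 7 were fractional in at least 1 library, as were 31064 of the 50663 rows of the table. The counts of hexokinase4, hexokinase8 and hexokinase9 were fractional in 22 libraries, yet their sum was whole, within 0.02 of a count, in all 24. The same held for the pair hexokinase1 and hexokinase6, fractional in 13 libraries, and for the pair hexokinase2 and hexokinase3, fractional in 20. Hexokinase5 and hexokinase7 were whole on their own in every library. Values for a single row of the first 3 sets thus rest in part on how shared reads were divided, and sums of the sets are given below beside the main comparisons. The largest distance of a row from a whole count was 0.18 for hexokinase1 and hexokinase6. It was 0.48 for hexokinase2 and hexokinase3, and 0.5 for the set of 3. How many reads were divided cannot be read from these fractions.

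Hexokinase7 was hardly detected. It had 1 count in the dried 23 May library of tree 12, 1 count in the watered 29 July library of tree 9, and 0 in the other 22 libraries. It did not pass the filter on low counts, so 8 of the 9 rows were tested, among 29107 rows in all.

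**Figure D1:**
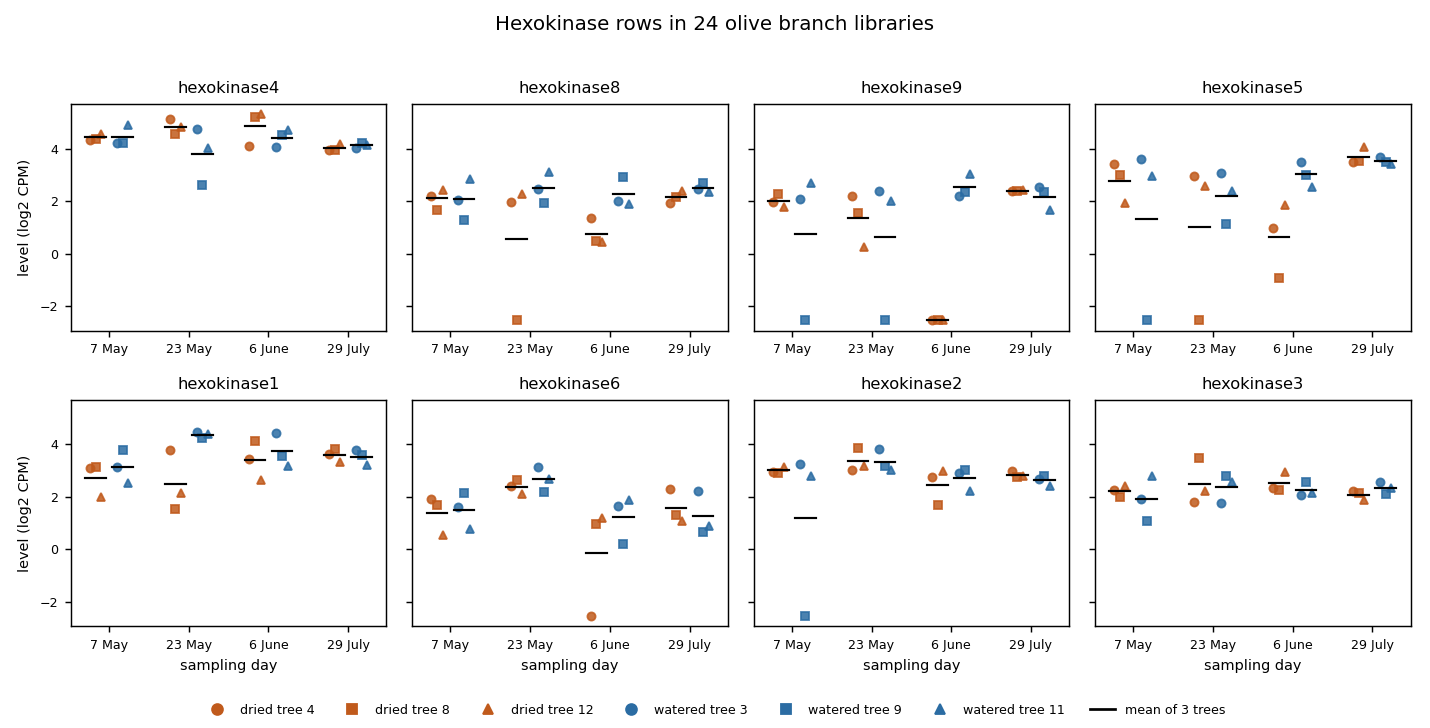
Level of each of the 8 tested hexokinase rows (vertical axis, log2 CPM) on the 4 sampling days, with dried trees left of watered trees, 1 point per library and a bar at the mean of 3 trees. Hexokinase9 lies at the level of a 0 count, -2.54, in all 3 dried trees on 6 June, and hexokinase5 and hexokinase8 are below all watered trees on that day.

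The row that stood out was hexokinase9, in the dried trees of 6 June. Its estimated count there was 0 in tree 4, 0 in tree 8 and 0 in tree 12, against 119.67 in watered tree 3, 25.13 in tree 9 and 33.56 in tree 11 on the same day. The groups did not overlap. Against the floor of 3 counts over the dried group, hexokinase9 was at least 24.4-fold lower in dried trees (0 against 4.93 CPM, pooled over 3 trees each). The bound was 21.7-fold, 15.1-fold and 12-fold without dried tree 4, 8 or 12, and between 22.5-fold and 31.2-fold without 1 of the watered trees. Bounds of this kind, here and below, cover counting error only. They take in neither the spread between trees nor the division of shared reads. The test missed the threshold, with an edgeR adjusted p of 0.056 over all rows. Under the alternatives the adjusted p ran between 0.000137 and 0.235, and 10 of 18 called the row, among them DESeq2 (0.000137) and the edgeR fit without the watered 7 May library of tree 9 (0.0048).

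Within the dried arm hexokinase9 fell on 6 June and rose again by 29 July. On 7 May its counts were 60.16, 40.23 and 41.47 in trees 4, 8 and 12, and on 23 May they were 35.13, 5 and 5.93. On 29 July they were 49.39, 123.48 and 124.62. All 3 dried trees had counts on every day but 6 June, where all 3 had none. The level on 6 June was at least 19-fold lower than on 7 May (edgeR adjusted p = 0.047), and that on 29 July at least 25.5-fold higher than on 6 June (edgeR adjusted p = 0.0225). Without the 6 June library of tree 8 or 12 these bounds were 11.8-fold and 9.34-fold against 7 May, and 15.8-fold and 12.5-fold for July. With the tree as a block, the fall from 7 May was no longer called (edgeR adjusted p = 0.0869) while the rise to 29 July was (0.0345). With that block edgeR called 0 of 29107 rows for the fall and 2372 for the rise. Neither change was called without 1 of the dried trees, with adjusted p of 0.222, 0.252 and 0.164 for the fall and 0.123, 0.151 and 0.153 for the rise without tree 4, 8 or 12. In each of these fits edgeR called 0 rows of the whole table in both contrasts. The fall was not called either without watered tree 11 (0.0822) or the watered 6 June library of tree 3 (0.0511), which add to the shared estimate of spread. Both of these fits also called 0 rows of the whole table for the fall.

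Levels of hexokinase9 in the dried arm were 2.01 ± 0.24 on 7 May, 1.35 ± 0.99 on 23 May and 2.41 ± 0.02 log2 CPM on 29 July (SD, n = 3 trees). The July values of the 3 dried trees were 2.39, 2.40 and 2.43 log2 CPM, which is the narrowest group of this row apart from the group at 0. They lay above all 3 values of 7 May, at 1.98, 2.27 and 1.79, but the change was not called (edgeR log2 fold change 0.39 ± 0.88 SE, adjusted p = 1.0). How many of all rows had groups apart between these days is not given.

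Watered trees had hexokinase9 counts on 6 June in all 3 trees. Hexokinase9 counts in watered trees 3, 9 and 11 were 88.90, 0 and 106.09 on 7 May, then 84.15, 0 and 26.92 on 23 May. On 29 July they were 105.27, 94.50 and 38.77. The 2 zeros came from tree 9, in the 2 libraries that stood apart from their groups, and the same tree had 25.13 counts on 6 June. The change from 7 May to 6 June differed between dried and watered trees (edgeR interaction, adjusted p = 0.0483). That call was lost with the tree as a block (adjusted p = 0.176) and without the watered 7 May library of tree 9 (0.182), and 7 of 20 alternatives made it, with adjusted p between 0.000464 and 0.338. Of the fits without 1 tree, only that without tree 3 kept it. The interaction of 29 July against 6 June had an adjusted p of 0.351.

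Counting all tested hexokinase rows, edgeR called 0 of 8 on 6 June between dried and watered trees, where it called 0.103% of all rows. It called 1 of 8 for 6 June against 7 May in dried trees (1.09% of all rows), 1 of 8 for 29 July against 6 June in dried trees (13.1%) and 1 of 8 for the interaction of 6 June against 7 May (1.07%). Each of these was hexokinase9. For the rise to July, 1 call in 8 is near the background. DESeq2 called 2 of 8 on 6 June, hexokinase8 and hexokinase9 (14.2% of all rows), 2 of 8 for 6 June against 7 May in dried trees (15.4%) 4 of 8 for 29 July against 6 June (26.1%) and 1 of 8, hexokinase9, for the interaction of 6 June against 7 May (9.84%).

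No hexokinase row was called by edgeR in the other 11 contrasts, beside 0.144% of all rows for 23 May against 7 May in dried trees and 0.0206% in watered trees, and 0.0% in the other 9. At an unadjusted p under 0.05, 3 of 8 rows passed on 6 June between arms (24.3% of all rows) and 1 of 8 on 23 May (11.2%), with 0 of 8 on 7 May (3.4%) and 29 July (0.141%). Outside the comparisons between arms, the contrasts without an edgeR call had 1 of 8 rows at that level for 23 May against 7 May in watered trees (16.4% of all rows) and 1 of 8 for the interaction of 29 July against 6 June (12.2%). The others had 0 of 8, beside 19.5% of all rows for 23 May against 7 May in dried trees and 3.11% to 9.45% in the remaining ones. DESeq2 called 1 row, hexokinase9, in the interaction of 29 July against 6 June (0.917% of all rows). It called none in the other 10 of these contrasts. There it called 0.251%, 1.23% and 0.055% of all rows between arms on 7 May, 23 May and 29 July. Against 7 May it called 9.3% on 23 May and 0.165% on 29 July in dried trees, and 6.27%, 1.7% and 2.5% on 23 May, 6 June and 29 July in watered trees. The shares were 0.0447% for 29 July against 6 June in watered trees and 0.897% for the interaction of 23 May. DESeq2 gave no adjusted p to 7 of 8 rows on 7 May between arms and to all 8 for the interaction of 23 May against 7 May.

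No change was called in the sum of hexokinase4, hexokinase8 and hexokinase9. On 6 June the 3 rows together had 32, 215 and 307 counts in dried trees 4, 8 and 12, against 665, 177 and 160 in watered trees 3, 9 and 11. The log2 fold change of the sum, dried over watered, was 0.02 ± 0.42 (SE, edgeR adjusted p = 0.987). In watered trees on that day hexokinase4 made up 66.7% of the summed counts and hexokinase9 17.8%. The sum therefore says little about a change in hexokinase9 alone. For 6 June against 7 May in dried trees the sum differed by 0.14 ± 0.42 (adjusted p = 0.85), and for 29 July against 6 June by -0.35 ± 0.42 (0.57). The division of the reads among the 3 rows is given next as shares of their sum, which do not depend on the scaling of libraries.

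**Figure D2:**
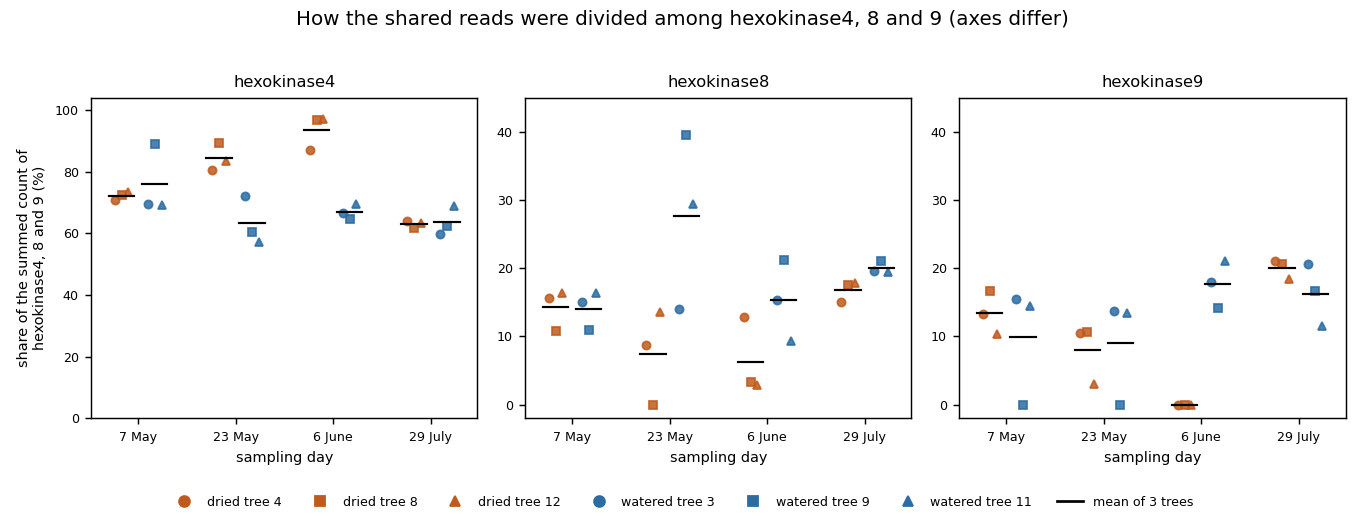
Share of the summed count of hexokinase4, hexokinase8 and hexokinase9 assigned to each of the 3 rows (vertical axis, percent, with a wider range for hexokinase4), by sampling day, with dried trees left of watered trees, 1 point per library and a bar at the mean of 3 trees. On 6 June the dried trees have a hexokinase4 share of 87.2% to 97.2% and a hexokinase9 share of 0, apart from all watered trees.

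Hexokinase9 took 0 of 554 set counts in dried trees on 6 June, which allows a share of up to 0.542%, against 17.8% of 1002 counts in watered trees (95% Wilson interval 15.5% to 20.3%). Intervals and limits of this kind cover counting error only. By tree the limits were 9.38% in tree 4, 1.40% in tree 8 and 0.977% in tree 12, against shares of 18%, 14.2% and 21% in watered trees 3, 9 and 11. Each dried limit lies below each watered share, though that of tree 4 rests on only 32 counts. In the 21 libraries outside this group the row was counted in 19, with a share between 2.96% and 21% and a median of 14.4%. The 2 without a count, both of watered tree 9, had 55 set counts on 7 May and 29 on 23 May. Their limits were 5.45% and 10.3%, which also lie below each watered share of 6 June.

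Hexokinase4 took 93.7% ± 5.6 of the set in dried trees on 6 June, against 67.0% ± 2.53 in watered trees (SD, n = 3), and 84.5% ± 4.45 against 63.2% ± 7.96 on 23 May. On both days all 3 dried trees lay above all 3 watered trees. On 7 May the shares were 72.3% in dried and 75.9% in watered trees, and on 29 July 63.1% and 63.7%, with overlap on both days. An exact two-sided permutation test gave p = 0.1 on 23 May and on 6 June, the smallest p that 3 against 3 trees allow, so none of the 28 share tests could pass.

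As a level, hexokinase4 was called in none of the 15 contrasts by edgeR with all 24 libraries. On 6 June it had 4.09, 5.21 and 5.31 log2 CPM in dried trees 4, 8 and 12, against 4.06, 4.51 and 4.71 in watered trees 3, 9 and 11. The groups overlapped through tree 4, and the log2 fold change was 0.53 ± 0.42 (SE, edgeR adjusted p = 0.48). On 23 May it had 5.12, 4.55 and 4.85 in the same dried trees, against 4.77, 2.64 and 4.04 in the watered trees, where tree 9 was low (0.79 ± 0.42, adjusted p = 0.485). In dried trees the group means were 4.43, 4.84, 4.87 and 4.03 log2 CPM over the 4 days. On 7 May the dried trees had 4.35, 4.37 and 4.58 and on 29 July 3.97, 3.95 and 4.17, all 3 below 7 May. The share of all rows lower in this way is not given. Neither July change was called, with -0.40 ± 0.42 against 7 May (adjusted p = 1.0) and -0.95 ± 0.42 against 6 June (0.121). The second was called by 3 of 20 alternatives, DESeq2 (adjusted p = 0.027), edgeR on the libraries of those days only (0.0358) and voom (0.0317). In the sum with hexokinase8 and hexokinase9 the log2 changes were 0.44 ± 0.42 for dried over watered trees on 23 May (edgeR adjusted p = 0.703) and -0.21 ± 0.42 for July against 7 May in dried trees (1.0). Watered trees had 4.21, 4.24 and 4.91 on 7 May and 4.04, 4.23 and 4.16 on 29 July, which overlap.

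Hexokinase8 had the same direction as hexokinase9 on 6 June but kept some counts. Dried trees 4, 8 and 12 had 4.08, 7.04 and 8.74 counts, against 102.51, 37.48 and 15.01 in watered trees 3, 9 and 11. In log2 CPM these were 1.36, 0.50 and 0.44 in dried trees, against 2.00, 2.91 and 1.88 in watered trees, with no overlap. The log2 fold change was -1.69 ± 0.70 (SE, edgeR adjusted p = 0.147), and it was called only by DESeq2 (0.0179) of 18 alternatives. Against 7 May in dried trees it was -1.50 ± 0.70 (adjusted p = 0.18), and 29 July was above 6 June by 1.52 ± 0.70 (0.128). Of 20 alternatives, 2 called the first of these changes (lowest adjusted p 0.0353, DESeq2) and 3 the second (lowest 0.0164, DESeq2). Its share of the set on 6 June was 6.29% ± 5.6 in dried and 15.3% ± 5.9 in watered trees, and these overlap. On 23 May the mean share was 7.48% in dried trees, where tree 8 had no hexokinase8 count among 47 set counts, against 27.7% in watered trees, with no overlap. The gap was narrow, with 13.6% in dried tree 12 and 14.1% in watered tree 3. Watered tree 9, at 39.6%, had only 29 set counts. Pooled over trees the shares were 9.76% in dried and 18.6% in watered trees. On 29 July the mean share was 16.9% in dried trees, a dried minus watered difference of -3.17 percentage points, also with no overlap (exact permutation p = 0.1).

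Hexokinase5, whose reads were assigned without division, had few counts in dried trees on 6 June as well. Its counts were 3, 2 and 26 in dried trees 4, 8 and 12, against 301, 40 and 24 in watered trees 3, 9 and 11. In log2 CPM these were 0.98, -0.93 and 1.85 in dried trees, against 3.51, 3.02 and 2.54 in watered trees. The groups did not overlap, with tree 12 the highest of the dried and tree 11 the lowest of the watered. The log2 fold change was -2.12 ± 0.98 (SE, edgeR adjusted p = 0.191), and 0 of 18 alternatives called it. This row and hexokinase8 were chosen for full values after they were seen.

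Over the days the dried means of hexokinase5 were 2.79 ± 0.78 on 7 May, 1.01 ± 3.08 on 23 May, 0.64 ± 1.42 on 6 June and 3.71 ± 0.33 log2 CPM on 29 July (SD, n = 3). The wide spread of 23 May comes from tree 8, which had 0 counts in its shallow library, while trees 4 and 12 were at 2.98 and 2.59. July values were 3.49, 3.55 and 4.08 in dried trees, against 3.68, 3.48 and 3.44 in watered trees, which overlap. The log2 change between 6 June and 29 July in dried trees was 2.78 ± 1.00 (SE, edgeR adjusted p = 0.0635) and was called by 7 of 20 alternatives. In watered trees the same change was 0.46 ± 0.89 (adjusted p = 1.0), and the difference between arms had an adjusted p of 0.48. Watered tree 9 had 0 counts on 7 May and 6 on 23 May.

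Over the 8 rows, 3 were lower in dried than in watered trees on 6 June with no overlap, namely hexokinase5, hexokinase8 and hexokinase9, where 17.4% of all rows were. In dried trees the same 3 rows were lower on 6 June than on 7 May with no overlap (18.1% of all rows) and higher on 29 July than on 6 June with no overlap (31.9% of all rows), where 3 of 8, or 37.5%, is near the background. Hexokinase3 was lower on 29 July than on 6 June in dried trees with no overlap, at -0.48 ± 0.50 on the log2 scale (SE, edgeR adjusted p = 0.51). For that direction no share over all rows is given. Over all rows the median log2 fold change was -0.26 on 6 June, and that of the 8 hexokinase rows was -0.54. Depth varied within both arms: the TMM-scaled library sizes on 6 June were 1663225, 5637623 and 7562214 in dried trees 4, 8 and 12, against 26890237, 5051521 and 4261837 in watered trees 3, 9 and 11. Dried tree 4 was the smallest and watered tree 3 the largest, while dried trees 8 and 12 were above watered trees 9 and 11. The pooled sizes were 14863062 in dried and 36203595 in watered trees. The part of depth in the result was not tested. Without the dried 6 June library of tree 4 and the dried 23 May library of tree 8, the edgeR adjusted p of hexokinase9 was 0.071 for 6 June against 7 May and 0.0414 for 29 July against 6 June.

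**Figure D3:**
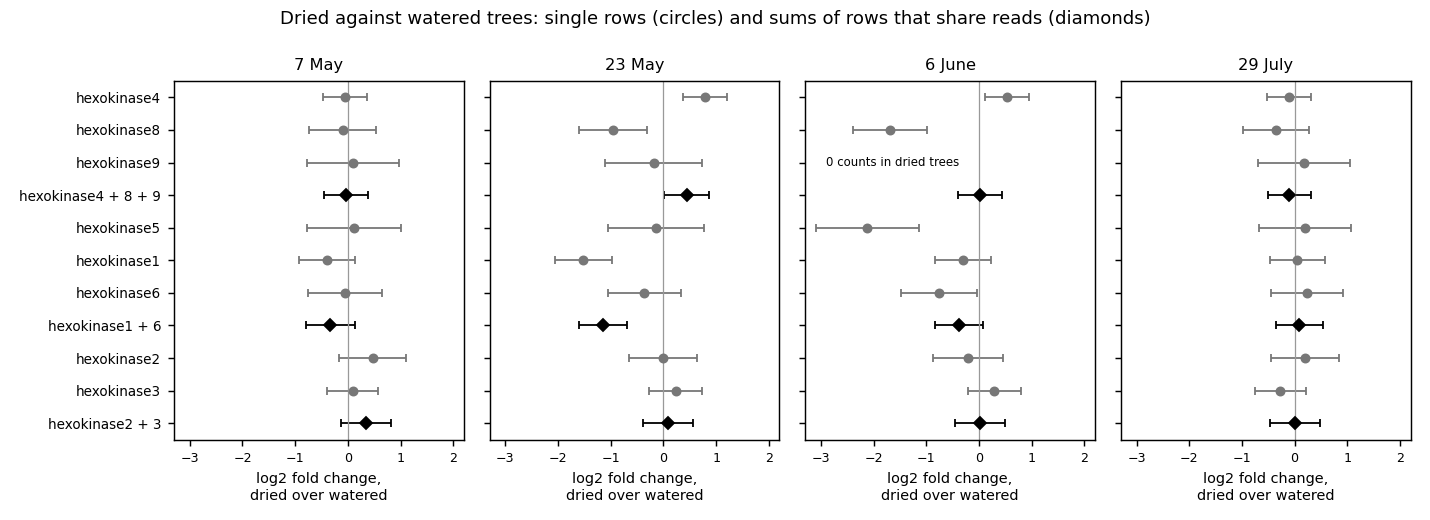
Log2 fold change of dried over watered trees (horizontal axis, 3 trees per arm) on the 4 days for single hexokinase rows (circles) and for the sums of rows that share reads (diamonds). Bars are the SE from the edgeR test, whose spread is estimated over all 24 libraries. On 6 June the sum of hexokinase4, 8 and 9 lies at 0.02 while hexokinase8 lies at -1.69 and hexokinase9, with 0 counts in dried trees, has no plotted fold.

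The groups of hexokinase1 were apart on another day. On 23 May it had 3.80, 1.55 and 2.16 log2 CPM in dried trees 4, 8 and 12, against 4.49, 4.25 and 4.38 in watered trees 3, 9 and 11. All watered trees were above all dried trees, and the watered trees differed little among themselves (SD 0.12, against 1.16 in dried trees). The share of all rows apart in this way on 23 May is not given, so this gap has no background beside it. For other comparisons that share lay between 4.87% and 31.9%, which cannot stand in for 23 May. The log2 fold change was -1.52 ± 0.54 (SE, edgeR adjusted p = 0.4). It lay between -2.52 and -1.18 under the alternatives, and 0 of 18 called it. The sum of hexokinase1 and hexokinase6 differed by -1.15 ± 0.46 (adjusted p = 0.408).

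On the other days the hexokinase1 groups overlapped between arms. On 7 May it had 3.09, 3.12 and 2.00 log2 CPM in dried trees and 3.13, 3.80 and 2.51 in watered trees. On 6 June it had 3.46, 4.13 and 2.64 in dried trees and 4.44, 3.57 and 3.18 in watered trees. On 29 July it had 3.64, 3.81 and 3.32 in dried trees and 3.78, 3.60 and 3.21 in watered trees. The dried July values all lay above those of 7 May (0.80 ± 0.52, edgeR adjusted p = 1.0), with 0.65 ± 0.46 for the sum with hexokinase6 (1.0). Here too no share over all rows is given.

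In watered trees, hexokinase1 and hexokinase6 both stood higher on 23 May than on 7 May with no overlap, 2 of 8 rows where 4.87% of all rows did so. The log2 changes were 1.17 ± 0.53 for hexokinase1 (edgeR adjusted p = 0.274) and 1.23 ± 0.70 for hexokinase6 (0.409), and that of their sum was 1.17 ± 0.46 (0.217). In dried trees hexokinase6 was also higher on 23 May than on 7 May, by 0.93 ± 0.70 (adjusted p = 0.473) with no overlap, while hexokinase1 was at 0.06 ± 0.53 and their sum at 0.35 ± 0.46 (0.71). For dried trees the share of all rows without overlap between these days is not given. Hexokinase6 ranged between 0 and 141.82 counts over the libraries. Its single 0 was in the dried 6 June library of tree 4, the shallowest of its day, where hexokinase1 took all 18 counts of the pair.

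No difference between arms was called for hexokinase2. It had 2.96, 2.91 and 3.15 log2 CPM in dried trees on 7 May, against 3.26, -2.54 and 2.81 in watered trees, where tree 9 had no count. On 23 May the values were 3.02, 3.86 and 3.19 in dried trees and 3.83, 3.16 and 3.03 in watered trees. On 6 June they were 2.76, 1.67 and 2.97 in dried trees and 2.92, 3.02 and 2.21 in watered trees. On 29 July they were 2.98, 2.74 and 2.78 in dried trees and 2.67, 2.80 and 2.41 in watered trees. The groups overlapped on all 4 days, and log2 fold changes lay between -0.21 and 0.47.

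Its partner hexokinase3 ranged between 1.06 and 3.49 log2 CPM and was counted in all 24 libraries. Its 8 group means lay between 1.93 and 2.51. The sum of hexokinase2 and hexokinase3 differed between dried and watered trees by 0.34 ± 0.47 on 7 May, 0.09 ± 0.48 on 23 May, 0.02 ± 0.48 on 6 June and 0.01 ± 0.47 on 29 July (SE, edgeR, none called). On 6 June hexokinase2 took 49.0% ± 7.72 of the pair in dried trees, against 57.7% ± 6.57 in watered trees (SD, n = 3). These shares overlap (exact permutation p = 0.2).

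Summed over the 9 rows, hexokinase counts lay between 41.0 and 94.2 CPM over 24 libraries, a 2.3-fold range, with a median of 64.5. Dried trees had 59.1 ± 4.24 CPM on 7 May, 67.7 ± 11.3 on 23 May, 58.7 ± 13.4 on 6 June and 64.9 ± 1.78 on 29 July (SD, n = 3). Watered trees had 58.5 ± 15.8, 72.9 ± 21.9, 68.5 ± 3.86 and 64.1 ± 6.46 CPM on those days. By tree on 6 June the sums were 43.3, 65.3 and 67.4 CPM in dried trees 4, 8 and 12 and 71.9, 69.3 and 64.3 CPM in watered trees 3, 9 and 11, which overlap. The sums depend on the scaling. On 6 June the log2 ratio of dried to watered means was -0.22 with TMM, and scaling by DESeq2 size factors did not move this result. The ratio was -0.70 with totals that leave out the rows above 1%, and -1.49 with plain totals.

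**Figure D4:**
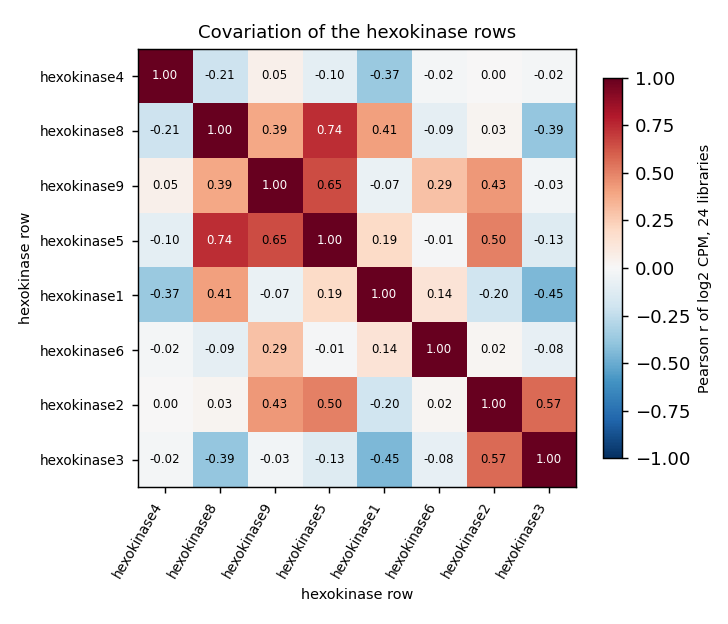
Pearson correlation of log2 CPM over 24 libraries between each pair of the 8 tested hexokinase rows, with both axes listing the rows by shared reads. Hexokinase5 is most like hexokinase8 (0.74) and hexokinase9 (0.65), while hexokinase4 has no r above 0.05 with any other row.

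The 8 rows did not move as a block over the libraries. The 28 pairs had correlations between -0.45 and 0.74, with a median of 0.0. The highest were those of hexokinase5 with hexokinase8 (0.74) and with hexokinase9 (0.65), rows that share no divided reads, followed by the pair hexokinase2 and hexokinase3 (0.57). Hexokinase8 and hexokinase9 had an r of 0.39 and hexokinase1 and hexokinase6 of 0.14. All points share their libraries and scaling, 3 trees recur on each day of an arm, and counts of 0 in shallow libraries weigh on each value.

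Among 79 tested rows with other short names, those most like hexokinase9 over the 24 libraries were sucsynthase10, named for sucrose synthase, which splits sucrose (r = 0.80), and dpe2 and dpe1, named for disproportionating enzymes, which rearrange the sugars released from starch (0.79 and 0.78). Hexokinase4 was most like ugp1, named for UDP-glucose pyrophosphorylase (0.77), gpt1, named for a glucose-phosphate transporter (0.72), and bamylase7, a beta-amylase (0.71). Hexokinase2 was most like gluct1 (0.75), bamylase1 (0.74) and sbe4, a starch branching enzyme (0.72). Hexokinase1 had no close match, with sucsynthase8 the nearest at 0.47. Among all 29099 tested rows outside the hexokinases, 3 had an r above 0.9 with hexokinase9, and the median r was 0.20. For hexokinase5 the nearest were starchsyn5, a starch synthase (0.93), isoamylase2, a debranching enzyme (0.92), and agp1, named for ADP-glucose pyrophosphorylase, which makes the substrate of starch synthesis (0.89).

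Some rows of neighbouring steps of the pathway were called in dried trees between 6 June and 29 July. In that contrast, where 13.1% of all rows were called, 7 of the 16 tested rows for sucrose splitting were called in dried trees, 4 higher in July and 3 lower. The higher ones were sucsynthase6, sucsynthase7, sucsynthase10 (4.01 ± 1.05, SE, edgeR adjusted p = 0.0284) and sucsynthase11 (2.71 ± 0.67, adjusted p = 0.0264), and the lower ones were the invertases invertase1, invertase2 and invertase8. Among 30 tested rows for starch breakdown, 5 were higher and 3 lower in July, among them dpe2, higher by 1.38 ± 0.44 (SE, edgeR adjusted p = 0.0445), and mex1, named for the maltose exporter of the plastid. Among 27 tested rows for starch building and import into the plastid, 9 were higher and 0 lower, agp1 among them (3.28 ± 1.00, adjusted p = 0.0397). None of these calls held without tree 4, 8 or 12, where edgeR called 0 rows of the whole table in this contrast, with 7295, 6474 and 6633 rows at an unadjusted p under 0.05.

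The median log2 change of these lists was -0.06 for sucrose splitting, 1.03 for starch breakdown and 1.95 for starch building, beside 0.65 for the 8 hexokinase rows and 0.20 for all rows. In watered trees between the same days edgeR called 0 rows in each list, and 24 of the 27 rows for starch building were positive, with a median of 0.47. The interaction of 29 July against 6 June also called 0 rows in each list, so no difference between the arms was shown. On 6 June between dried and watered trees the medians were -0.14, -0.61 and -0.84 for the lists in that order, with 1 row called in all, starchsyn1, which was lower in dried trees. These lists were drawn up with results of these data known.

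The authors' deposited table of comparisons holds 8 of the 9 hexokinase rows, without hexokinase7. Its comparison named for control 2 and drought 2 followed, with the opposite sign, the interaction of 6 June against 7 May computed here, with an r of -0.99 across 83 named rows. In the authors' deposited table hexokinase9 had a log2 fold change of 7.51 there, with an adjusted p of 0.000659. This is a fitted value over a group at 0 counts and no bound, and it is positive where the change was lower in dried than in watered trees. Hexokinase5 followed in the authors' deposited table at 3.01 (adjusted p = 0.0857) and hexokinase8 at 1.61 (0.149), while hexokinase4 had -0.58 (0.479). In the comparison named for control 1 and drought 1 of the authors' deposited table, hexokinase4 was the only hexokinase row with a value, at -0.93 (adjusted p = 0.229). That comparison followed the interaction of 23 May against 7 May, also with the opposite sign (r of -0.99 across 43 named rows). The negative value thus stands for a change that was higher in dried than in watered trees. In the edgeR interaction hexokinase4 was at 0.85 ± 0.60 (SE, adjusted p = 0.633).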

How the data were processed

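Branch RNA of 6 olive trees on 4 days gave 24 libraries. The authors deposited expected counts per row (per the file headers and values) and, per the submitters' processing notes, used cutadapt, Bowtie2, RSEM, DESeq2 and limma, whose versions, like the genome build, are not given in the sources used here. A second deposited table holds scaled values, a signal without a stated formula, and another holds the authors' log2 fold changes with p-values. All per-sample columns were used.

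Expected counts were rounded, filtered by group with filterByExpr and tested on all 29107 remaining rows with edgeR 4.0.16 (quasi-likelihood, TMM, R 4.3.3), with 1 mean per group and 15 contrasts. P-values were Benjamini-Hochberg adjusted over all rows within a contrast and called under 0.05. The SE of an edgeR log2 fold change is its absolute value divided by the square root of the F statistic. The code was tested on simulated data. DESeq2 1.42.0, limma 3.58.1 and further settings were alternatives, 19 listed at the start and 2 added after the data were seen.

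Sets of rows that share reads were found as the smallest groups whose summed expected count was whole, within 0.02, in every library. Replicates are trees. The tree number links libraries of different days, since it is the same tree, and not the arms; deviations from group means correlated within a tree at a mean r between -0.03 and 0.18.

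Values of every library are given for rows called in any contrast, for the row with the lowest p on 6 June and for the 3 with the highest mean level. Members and lists were chosen with earlier results of these data known. None of the 50663 identifiers matched the RefSeq table, so no coordinates or sequences are given.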

Additional observations from a re-analysis of the deposited data

Results flagged for a closer look

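For hexokinase9 the change from 7 May to 6 June differed between dried and watered trees by a test of the difference itself (edgeR interaction, adjusted p = 0.0483). The call was lost with the tree as a block (edgeR adjusted p = 0.176) and in 13 of 20 alternatives in all. With the block edgeR called 0 rows of the whole table in this contrast. All 3 dried trees had no count on 6 June, and watered tree 9 had none on 7 May. The fitted size depends on how a count of 0 is handled and is no bound.

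For hexokinase8 the change from 7 May to 23 May was negative in all 3 dried trees and positive in all 3 watered trees. The log2 CPM differences were -0.25, -4.22 and -0.18 in dried trees 4, 8 and 12, against 0.40, 0.65 and 0.24 in watered trees 3, 9 and 11, so the arms' mean changes differed by -1.98. The largest rests on the shallow 23 May library of tree 8, where the row had 0 counts. The edgeR interaction was -0.86 ± 0.91 (SE, adjusted p = 0.751).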

How the results depend on the processing

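No result reversed its direction. The number of hexokinase rows called on 6 June between arms was 0; it was 2 with DESeq2 and 1 each with the DESeq2 size factors, without a filter, with the authors' scaled values, with the days compared only, without the watered 7 May library of tree 9 (also with its 23 May library), without the watered 23 May libraries of trees 3 and 9, and with voom. Over all rows, that contrast had 30 of 29107 called in the main fit and 49 with the DESeq2 size factors. The calls were 4135 of 29107 with DESeq2, 1102 of 20789 with those days only and 1594 of 29107 with voom. For 6 June against 7 May in dried trees the hexokinase rows called were 1, and 2 with DESeq2, 3 with DESeq2 and the replicate block, and 0 with edgeR and the replicate block, with those days only, without watered 6 June tree 3, without the 2 shallow dried libraries, or with rows summed by shared reads. All-row calls there were 316 of 29107 in the main fit, 4477 with DESeq2 and 4756 with DESeq2 and the block. Among the settings without a hexokinase call there, all-row calls were 0 with the edgeR block or without watered 6 June tree 3. They were 2 of 27059 with those days only, 8 of 30515 without the shallow libraries and 314 of 29103 with summed rows. For 29 July against 6 June in dried trees the hexokinase rows called were 1, and 4 with DESeq2 or those days only, 3 with DESeq2 and the replicate block or with voom, 2 without the 7 May library of tree 9 (also with its 23 May library), and 0 with summed rows. All rows called in this contrast were 3805 of 29107 in the main fit and 7607 with DESeq2. They were 9350 of 27617 with those days only and 8306 of 29107 with voom. The interaction of 6 June against 7 May called 1 hexokinase row, and 0 with scaled values, the edgeR replicate block, those days only, without the 7 May library of tree 9 (also with its 23 May library), without watered 6 June tree 3, without the shallow pair, with voom or with summed rows. Among all rows it called 310 of 29107 in the main fit and 675 with voom. It called 1 of 27059 with those days only, and 0 with scaled values, with the edgeR block and with those libraries left out. The interaction of 29 July against 6 June called 0 hexokinase rows, and 1 with DESeq2, with DESeq2 and the block, those days only, voom, or without both libraries of tree 9. Its all-row calls were 0 in the main fit, 267 of 29107 with DESeq2, 241 with DESeq2 and the block and 603 with voom. They were 2504 of 27617 with those days only and 194 of 29987 without both libraries of tree 9.

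Leaving out 1 tree gave 0 to 1 calls on 6 June between arms, 0 to 1 for 6 June against 7 May in dried trees, 0 to 2 for 29 July against 6 June in dried trees and 0 to 1 for the interaction of 6 June. Among all rows these fits called 0 to 2236, 0 to 3748, 0 to 7140 and 0 to 1495 rows, in that order. The call of 6 June against 7 May was lost without tree 4, 8, 11 or 12, where edgeR called 0 rows of the whole table in that contrast. The log2 ratio of summed levels was -0.86 on 23 May with plain totals, against -0.11 with TMM, and -1.49 and -0.70 on 6 June with plain totals and with totals without the rows above 1%. The causes were not tested.

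A block on trees gives no value for dried against watered trees on 1 day, since each tree belongs to 1 arm. The block changed no other call of edgeR. Leaving out the rows above 1% moved the median log2 fold change of all rows by over 0.1 in 4 contrasts, most for 29 July against 6 June in dried trees (0.057 against 0.202). Depth limits single rows most in the dried 6 June library of tree 4, with 72 hexokinase counts.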
